A study of Arabidopsis thaliana with 6 samples.

Results

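The transcripts described here differed strongly among 3 arrays of albino msh1 plants and little among 3 arrays of wild-type plants. A probe set was taken as a member when its highest and lowest log2 values lay at least 1.2 apart among the albino arrays and at most 0.6 apart among the wild-type arrays, with a mean of at least 5 over the 6 arrays. A log2 difference of 1 is a 2-fold difference. Array controls, 69 probe sets of plastid genes and 5 named genes of the mitochondrial stress response (NDB2, NDB4, AT5G09570, AT2G21640 and AT5G51440) were left out. This gave 158 members among 13602 probe sets with a mean of at least 5, which is 1.16%, and among 22746 probe sets in all. Of the members 69 had a single named gene, 3 had several genes, and 86 were unnamed in the annotation used here. Plastid genes could be left out only where the annotation named them, so the unnamed members may include some. The members were chosen by the spread of the log2 values within each group and by their mean level, so these spreads and every measure from the same arrays are given as a description, without support for or against any cause.

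Plants of Arabidopsis thaliana were either albino msh1 mutants or wild type, with 3 arrays each. The nucleus encodes MSH1, a MutS-type protein of plastids and mitochondria that keeps recombination of their genomes low. The aerial part was collected from plants 4 weeks old kept at 24 °C under a cycle of 12 h light and 12 h dark on MS medium that held 1.5% sucrose, and RNA was extracted plant by plant and hybridised to an Affymetrix array. All msh1 arrays came from albino tissue, so genotype and albino state cannot be told apart. The labels name no msh1 allele and give no score of how white each plant was.

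Many early stress genes of plants are switched on within minutes of touch, wounding, cold or a microbial signal. Calcium sensors, WRKY and ERF transcription factors, U-box ubiquitin ligases and VQ-motif proteins are among them, and their transcripts are short-lived. A separate response follows disturbed mitochondria, in which nuclear genes for alternative respiratory enzymes, efflux proteins and glutathione transferases are induced. Extensins, expansins and xyloglucan enzymes build and loosen the cell wall of growing tissue.

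The arrays themselves differed somewhat before any member was examined. The correlation across probe sets was 0.989 to 0.994 within the albino group, 0.992 to 0.995 within wild type and 0.969 to 0.985 between the groups. Albino replicate 2 had the highest value of the 6 arrays in 18 of 18 spiked hybridisation controls, with a mean of 9.25 against 8.70 and 8.55 in albino replicates 1 and 3 and 8.73 to 8.96 in wild type. Its 25S rRNA control was also the highest, at 9.75 against 8.68 and 9.02 in the other albino arrays and 8.02 to 8.85 in wild type. Albino replicate 3 had the lowest 75th percentile, at 7.75, against 7.81 and 7.91 in replicates 1 and 2 and 7.88 to 7.94 in wild type. The median of the plastid genes was 9.92, 9.98 and 9.67 in albino replicates 1, 2 and 3, against 10.38 to 10.63 in wild type. The antenna genes LHCB4.1 and LHCB4.2, which mark green tissue, reached 10.8 to 13.0 in albino arrays and 12.1 to 13.5 in wild type. The root-hair genes EXPA7 and EXPA18 and the seed gene AT3G22490 stayed between 3.72 and 4.28 in albino arrays and between 3.74 and 4.23 in wild type. PYK10, a beta-glucosidase of ER bodies in the same list of root genes, was high instead, with 9.65, 9.71 and 8.38 in albino replicates 1, 2 and 3, against 8.58, 7.10 and 7.90 in wild type. AGL24, the only gene of a floral list that the annotation matched to a single-gene probe set, had 7.05, 7.30 and 6.84 in albino arrays. Its wild-type values were 7.20, 6.97 and 7.04. The part of these array differences in the results below was not tested.

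Among the members, the range within the albino group reached 4.38 with a median of 1.50. The range within wild type ran between 0.0188 and 0.598 with a median of 0.347. Over all 13536 probe sets with a mean of at least 5 outside the plastid genes, the median range was 0.301 in the albino group and 0.271 in wild type. An albino range of at least 1.2 was found in 272 of them, and 28 reached 1.2 in both groups. The mirror choice, wild-type arrays at least 1.2 apart and albino arrays at most 0.6 apart, gave 58 probe sets. The last members inside the albino threshold were the unnamed probe sets 251861_at and 253666_at and the gene AT5G18150, with ranges of 1.2005, 1.2049 and 1.2093. Just outside it lay the unnamed probe set 246099_at and the genes AT2G04070 and AT5G12420, with ranges of 1.1983, 1.1961 and 1.1914.

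Albino replicate 2 was the array that stood apart most often. It held the highest albino value in 122 of the 158 members (77.2%), against 53.2% of the other 13378 probe sets with a mean of at least 5 outside the plastid genes. Replicate 1 was highest in 16 members and replicate 3 in 20. Replicate 1 held the lowest value in 90 members, replicate 2 in 25 and replicate 3 in 43. The order replicate 2, then 3, then 1 was found in 89 members (56.3%), against 18.7% of the other probe sets. The order 2, 1, 3 was found in 33 (20.9%, against 34.5%), and the order 3, 1, 2 in 19 (12.0%, against 10.8%). In most members, therefore, the albino arrays ran in an order that most other probe sets did not share, with replicate 2 on top and replicate 1 at the bottom.

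A single array was called clearly apart where its gap to the next albino value was at least 2 times the gap between the remaining pair. This held for 99 members (62.7%), against 62.1% of the other probe sets, and the remaining 59 members were graded. Replicate 2 was clearly high in 62 members (39.2%, against 19.1% of the others) and clearly low in 7. Replicate 3 was clearly low in 16 (10.1%, against 15.4%) and clearly high in 8. Replicate 1 was clearly high in 2 and clearly low in 4. A clearly low replicate 3 was therefore a smaller share of the members than of the other probe sets.

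**Figure D1:**
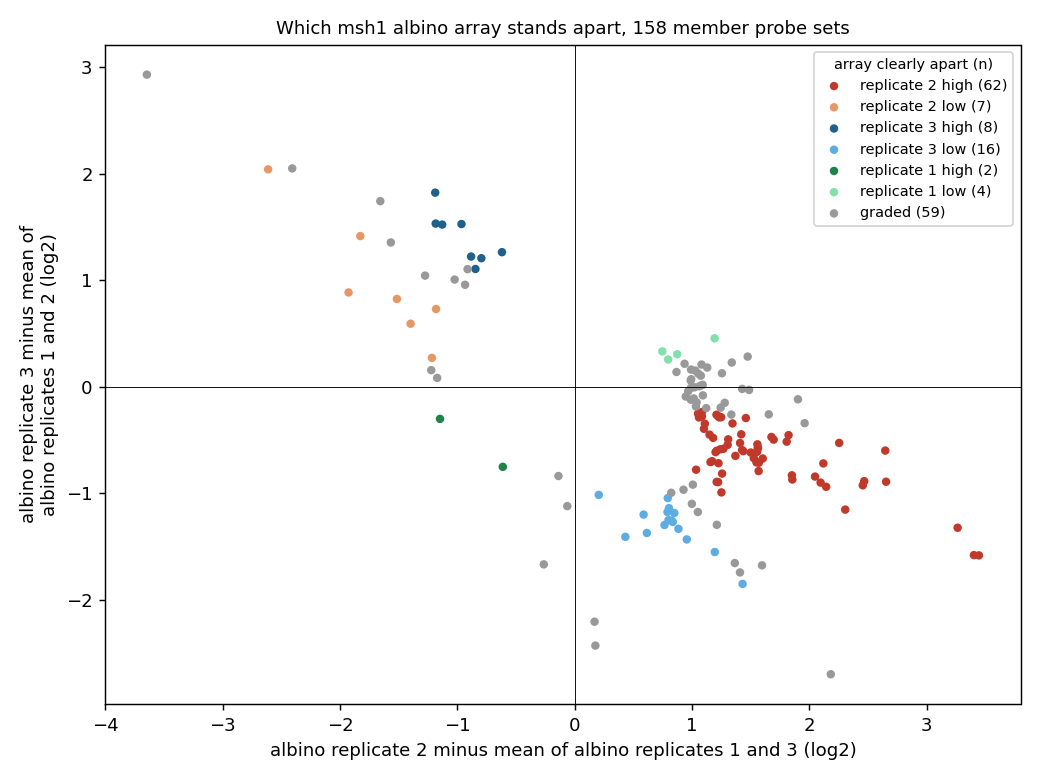
Each point is a member probe set, placed on the horizontal axis by albino replicate 2 minus the mean of albino replicates 1 and 3 and on the vertical axis by albino replicate 3 minus the mean of albino replicates 1 and 2, both on the log2 scale. The 62 members with replicate 2 clearly high lie at the right, the 16 with replicate 3 clearly low at the lower right, and the 7 and 8 with replicate 2 low or replicate 3 high at the upper left.

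Set against the mean of wild type, the classes had different profiles. In the class with replicate 2 high, the median member lay 0.28, 1.99 and 0.46 above the wild-type mean in albino replicates 1, 2 and 3. In 35 of these 62 members, replicates 1 and 3 averaged within 0.6 of the wild-type mean. In the class with replicate 3 low the medians were 1.04, 1.1 and -0.27, so that at the median replicates 1 and 2 were the arrays above wild type. Its 16 members were mixed. Replicate 3 alone was within 0.6 of the wild-type mean in 5 of them. The mean of replicates 1 and 2 alone was so in 3, neither was in 7 and both were in 1. In the class with replicate 3 high they were -1.27, -1.65 and 0.03, and in 7 of its 8 members replicate 3 was the array within 0.6 of the wild-type mean. In the class with replicate 2 low they were -0.32, -1.93 and -0.66. Over the graded members they were 0.70, 1.77 and 0.78. The array that stood apart was thus the array unlike wild type in some classes and the array like wild type in others.

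**Figure D2:**
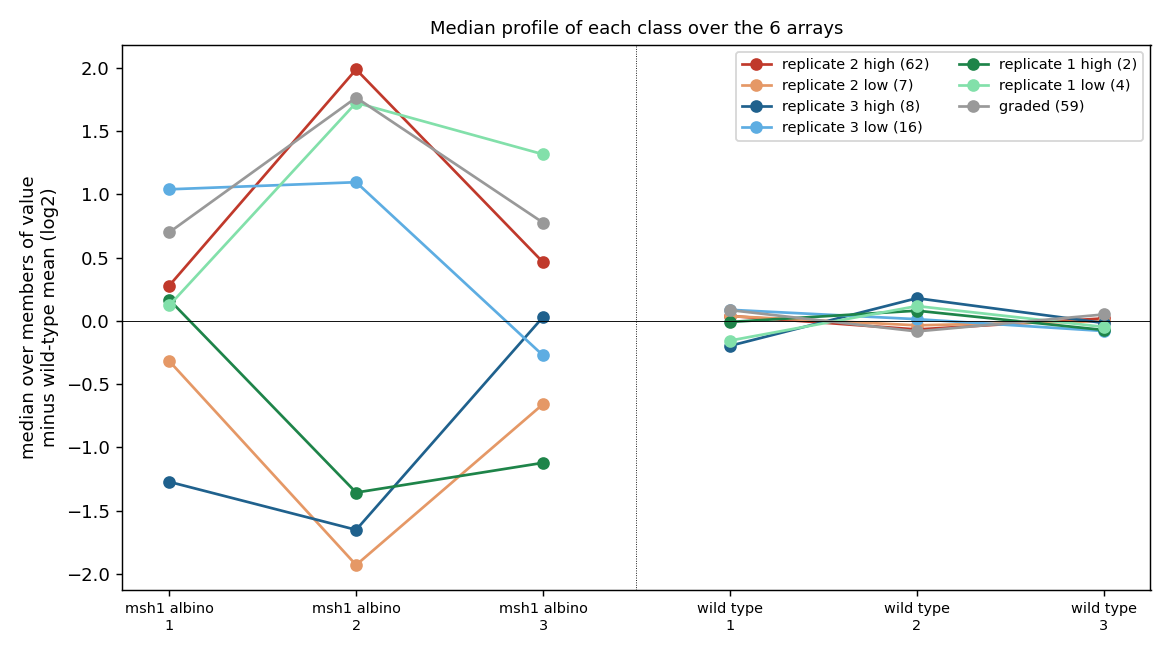
For each class the points give the median over its members of the log2 value minus the wild-type mean, in albino replicates 1 to 3 at the left and wild-type replicates 1 to 3 at the right. The class with replicate 2 high peaks at 1.99 in albino replicate 2, the class with replicate 3 low drops to -0.27 in albino replicate 3, and the wild-type points lie near 0.

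Relative to wild type, most members were higher in the albino group, with a median difference of 0.86 against -0.04 over all probe sets tested. The difference of means was above 0 in 125 members and below 0 in 33. Albino and wild-type values did not overlap in 92 members (79 above, 13 below), which is 58.2% against 29.9% of all tested probe sets. By limma with Benjamini-Hochberg adjustment over all probe sets, 42 members passed at 0.05, which is 26.6%, and 11.2% of all tested probe sets passed. Of these 36 were higher and 6 lower, where 3.75% of all probe sets were higher and 7.44% lower. Nothing is read from these counts, because the rule chose members by the spread that enters the test. The median SE of a difference was 0.341 in members and 0.118 over all probe sets. Of the named members 21 were called, 19 higher and 2 lower, and with wild-type replicate 2 left out 3 of these calls remained (AT3G22060, AT5G19240 and AT1G25400). Without it the differences of the 21 genes were 1.33 to 2.59 in the higher ones and -1.72 and -1.19 in the lower ones, so the calls ended while the directions held. When wild-type replicate 1 was dropped 12 of the 21 calls remained, and 7 did when replicate 3 was. An intensity trend with a robust prior in the same fit ended the calls of XTH18, PUB23, WRKY53, AT2G20720 and AT3G48970. RNA of whole aerial parts was measured, so fewer cells of a type and less RNA per cell cannot be told apart.

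Sorted by what their products do, the 69 named members are described below by group. This sorting was made with the values in view and no group was tested. Albino replicate 2 was highest in 57 of the 69 (82.6%), and the group counts that follow are to be read beside that share, from which most of them hardly differ. It was highest in 4 of 4 calcium sensors and 4 of 4 transcription factors, in each case 3 when the arrays were aligned on the spiked controls. It was highest in 3 of 3 immune receptor-type genes, also after that alignment, in 6 of 6 membrane or membrane-trafficking genes (5 after it) and in 5 of 6 signalling genes (4 after it). Of the 21 genes without a group here it was highest in 20, and in 17 after the alignment. The alignment lowered the count from 5 to 2 of 7 enzyme genes and from 3 to 1 of 4 genes of mitochondrial stress and detoxification. It left the count at 4 of 5 defence peptides or lectins and 2 of 7 cell wall genes. Replicate 2 was highest in AT2G07722 only as deposited, and in AT3G48970 under neither.

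ORA47, an ERF-type transcription factor known for its role in jasmonate and wound responses, had the widest range of the named genes with replicate 2 high. Its log2 values were 4.35, 7.83 and 4.50 in albino replicates 1, 2 and 3, against 4.62, 4.80 and 4.42 in wild type. Replicate 2 stood 10.6-fold above the mean of the other albino arrays, which lay within or just below the wild-type range. The difference of the means was 0.95 ± 0.82 (SE, n = 3 each) and was not called (limma, adjusted p = 0.56), and without albino replicate 2 it was -0.19.

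The WRKY factors among the members, which regulate defence and leaf senescence, kept the same order with every albino array above wild type. WRKY53 had 5.64, 7.34 and 5.91 in albino replicates 1, 2 and 3, against 4.64, 4.15 and 4.68 in wild type, and was called higher by 1.81 ± 0.41. WRKY22 had 5.50, 6.86 and 5.98 in albino arrays, against 5.01, 5.11 and 4.92 in wild type. For both genes the groups did not overlap, and replicate 2 was the farthest from wild type. YAB5, a YABBY factor of lateral organs, was the exception among the transcription factors, with 6.12, 6.38 and 4.98 in albino arrays, against 5.54, 5.47 and 5.34 in wild type. There replicate 3 fell outside wild type on the low side and the others on the high side.

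The calcium sensors were AT4G27280 and AT3G47480, which are EF-hand proteins, and the calmodulin-like CML41 and AT2G41090. AT4G27280 had 8.27, 10.40 and 8.88 in albino replicates 1, 2 and 3, against 7.53, 7.33 and 7.52 in wild type. CML41 had 7.29, 8.55 and 7.34 in albino arrays, against 6.78, 6.60 and 6.87 in wild type. AT3G47480 had 6.07, 7.10 and 5.69 in albino arrays, against 5.60, 5.05 and 5.14 in wild type. In these 3 genes replicate 2 was clearly high and every albino array lay above wild type. AT2G41090 differed, with 9.17, 9.43 and 8.04 in albino arrays, against 8.27, 7.87 and 8.04 in wild type, and its replicate 3 lay within the wild-type values.

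Among the signalling genes, PUB23 encodes a U-box E3 ubiquitin ligase that dampens immune and drought responses. It had 5.35, 7.28 and 5.82 in albino replicates 1, 2 and 3, against 4.32, 4.30 and 4.36 in wild type, and was called higher by 1.83 ± 0.43. Its close relative PUB22, no member, had 5.39, 6.41 and 5.36 in albino arrays, against 4.76, 4.70 and 4.52 in wild type. Both ligases were highest in replicate 2 and above wild type in all albino arrays. The VQ-motif proteins, which act as partners of WRKY factors, followed. AT2G22880 had 5.73, 7.76 and 6.48 in albino arrays, against 4.70, 4.22 and 4.42 in wild type, and was called higher by 2.21 ± 0.44. AT3G56880 had 9.31, 10.59 and 9.71 in albino arrays, against 9.07, 9.08 and 9.09 in wild type. Its wild-type arrays were nearly equal, and the spread lay in the albino group.

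AT3G22060, a secreted protein with domains of cysteine-rich receptor-like kinases, had 7.32, 7.94 and 6.45 in albino replicates 1, 2 and 3, against 4.87, 4.53 and 4.51 in wild type. It was called higher by 2.6 ± 0.33, and its lowest albino array still lay above every wild-type array. AT5G05300, a small peptide precursor, had 5.18, 6.76 and 6.17 in albino arrays, against 5.01, 4.87 and 5.10 in wild type. AT1G22160, an FLZ-domain protein, was the signalling gene with the opposite pattern, with 6.81, 5.72 and 7.00 in albino arrays, against 7.73, 7.97 and 7.67 in wild type. It was called lower, with a difference of -1.28, and replicate 2 was the farthest below wild type.

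The immune receptor-type genes were AT1G57630, a TIR-domain protein, AT5G58120, a TIR-NBS-LRR protein, and the leucine-rich repeat protein AT2G34930. AT1G57630 had 5.31, 6.61 and 5.38 in albino replicates 1, 2 and 3, against 4.45, 4.36 and 4.03 in wild type, and was called higher by 1.49 ± 0.33. AT2G34930 had 5.89, 7.39 and 6.05 in albino arrays, against 5.01, 5.25 and 5.38 in wild type. AT5G58120 had 6.29, 7.52 and 6.65 in albino arrays, against 6.24, 6.36 and 6.69 in wild type. The groups overlapped for AT5G58120 alone of these genes, and replicate 2 was clearly high in all of them.

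Of the 6 membrane genes, 3 had replicate 2 clearly high and 3 were graded. TET8, a tetraspanin of extracellular vesicles, had 9.94, 11.17 and 10.11 in albino replicates 1, 2 and 3, against 10.08, 9.88 and 10.08 in wild type. AT5G64870, a flotillin-like protein of membrane microdomains, had 4.93, 6.61 and 5.10 in albino arrays, against 5.18, 4.89 and 4.92 in wild type. AT2G27080, an LEA hydroxyproline-rich glycoprotein, had 6.86, 9.24 and 7.71 in albino arrays, against 6.88, 6.55 and 6.81 in wild type. In these 3 genes replicate 1 lay within the wild-type range and replicate 2 above it. AT5G19240, a GPI-anchored glycoprotein, had 6.67, 7.88 and 6.67 in albino arrays, against 5.15, 5.09 and 5.17 in wild type. AT1G10340, an ankyrin-repeat protein, had 6.05, 7.44 and 6.96 in albino arrays, against 4.90, 4.84 and 5.10 in wild type. Both were called higher, and replicate 2 exceeded albino arrays that were themselves above wild type. NAI2, which is needed to form ER bodies, had 7.62, 8.21 and 6.95 in albino arrays, against 6.92, 6.80 and 7.05 in wild type, with replicate 3 within the wild-type range.

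Several genes of little-known function stood apart as strongly. AT4G29780, a nuclease-like protein induced by many stresses, had 6.13, 9.08 and 6.71 in albino replicates 1, 2 and 3, against 5.68, 5.43 and 5.87 in wild type. AT4G27652 had 5.93, 8.23 and 5.93 in albino arrays, against 5.73, 5.64 and 5.78 in wild type. Their albino arrays all lay above wild type, but replicates 1 and 3 by little next to replicate 2. The DUF793 gene AT1G18740 had 7.32, 8.91 and 7.41 in albino arrays, against 7.49, 7.41 and 7.46 in wild type. AT1G74450, also with a DUF793 domain, had 7.45, 8.85 and 7.50 in albino arrays, against 7.30, 7.28 and 7.17 in wild type. AT1G74440, the neighbour of AT1G74450 on chromosome 1, had 5.35, 6.44 and 5.20 in albino arrays, against 5.16, 5.10 and 5.22 in wild type. Replicate 2 was clearly high in all 3, and replicates 1 and 3 were close to wild type. AT1G25400 had 8.26, 9.57 and 8.90 in albino arrays, against 6.71, 7.03 and 7.11 in wild type, and was called higher.

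**Figure D3:**
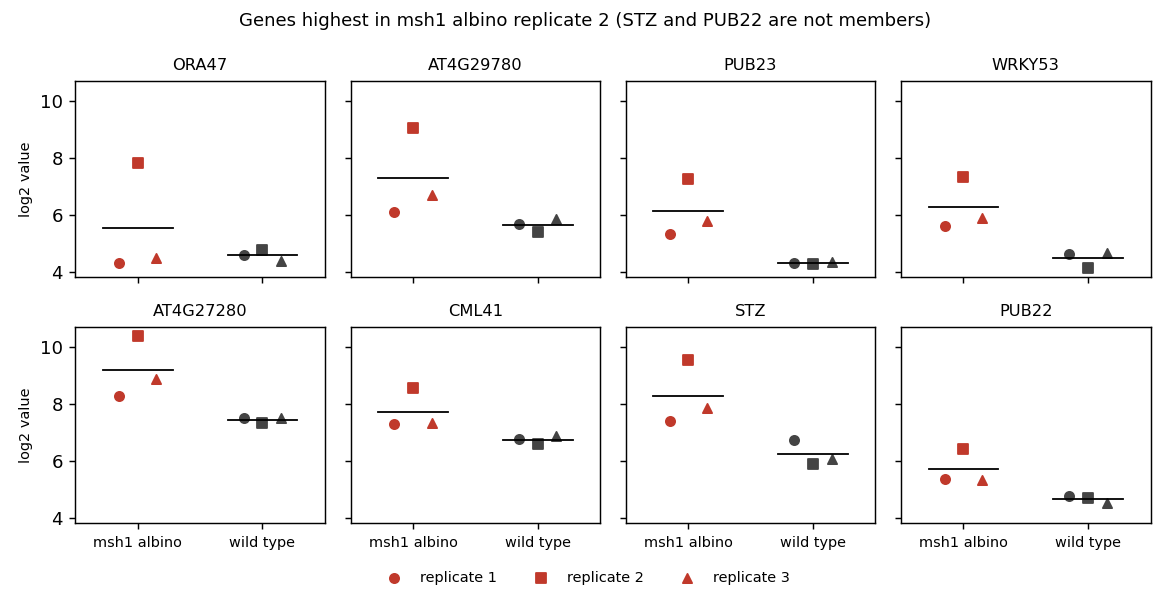
Each panel gives a gene's log2 value in the 3 msh1 albino arrays at the left and the 3 wild-type arrays at the right, with marker shapes for replicates and a line at each mean. In ORA47 the replicate 2 value of 7.83 stands over a wild-type-like pair, while in PUB23 and WRKY53 all albino arrays lie above wild type; STZ and PUB22 are not members.

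Of the 22 genes in a list of early stress factors, the annotation matched 4 to a single-gene probe set. Unnamed probe sets, members included, may hold others of the list. AT4G29780 was the member among the 4 matched genes. Albino replicate 2 was highest in the 3 that were no members, STZ, CML23 and CML37, where it was highest in 5221 of all 13350 genes (39.1%). Among non-members with a mean of at least 5, the level of STZ, that share was 53.2%. This list too was chosen with earlier results of these data known. STZ was called higher, as were 391 of all genes. STZ, a zinc-finger repressor of the cold and salt response, had 7.42, 9.55 and 7.88 in albino replicates 1, 2 and 3, against 6.74, 5.89 and 6.09 in wild type. CML23, a calmodulin-like protein, had 3.77, 5.80 and 3.68 in albino arrays, against 3.86, 3.49 and 3.63 in wild type. The calmodulin-like CML37 had 3.52, 4.55 and 3.74 in albino arrays, against 3.31, 3.44 and 3.52 in wild type. Both failed the minimum mean of 5 and so could not be members.

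Defence peptides and lectins did not share a single order. AT5G01870, a lipid-transfer protein, had 4.70, 7.40 and 5.16 in albino replicates 1, 2 and 3, against 4.09, 4.64 and 4.22 in wild type. AT3G05730, a defensin-like protein, had 7.38, 8.49 and 5.23 in albino arrays, against 5.99, 5.79 and 5.41 in wild type. Another defensin-like gene, AT2G43530, had 8.87, 9.62 and 7.94 in albino arrays, against 9.18, 8.81 and 9.12 in wild type. In both defensin-like genes replicate 3 was the lowest of all 6 arrays and replicate 2 the highest. AT1G66100, a thionin, was the reverse for replicate 2, with 8.41, 6.94 and 8.27 in albino arrays, against 8.50, 8.32 and 8.28 in wild type. AT1G52000, a jacalin-like lectin, had 6.04, 6.64 and 5.24 in albino arrays, against 5.97, 5.85 and 5.78 in wild type. It was the member among the 5 genes of the jasmonate and wounding list matched to a single-gene probe set. Replicate 2 was highest in 4 of these 5.

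Cell wall genes held the widest spread of all members. AT3G28550, a proline-rich extensin-like protein, had 7.26, 4.36 and 8.74 in albino replicates 1, 2 and 3, against 4.50, 4.67 and 4.19 in wild type. Replicate 2 was at the wild-type level, and replicates 1 and 3 were far above it. AT5G59170, also extensin-like, had 8.48, 7.44 and 9.70 in albino arrays, against 7.50, 8.04 and 7.73 in wild type. The leucine-rich repeat extensin AT4G18670 had 5.83, 5.14 and 6.49 in albino arrays, against 4.48, 4.72 and 5.01 in wild type. GH9B13, a family 9 glycosyl hydrolase, had 6.22, 5.61 and 6.87 in albino arrays, against 6.74, 6.68 and 6.36 in wild type. These 4 genes had the order 3, 1, 2, and in all of them replicate 2 was the lowest albino array.

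XTH18, an enzyme that cuts and rejoins xyloglucan, ran the other way. It had 7.52, 9.98 and 8.63 in albino replicates 1, 2 and 3, against 6.45, 5.93 and 5.90 in wild type, and was called higher by 2.62 ± 0.53. Its relative XTH19, no member, had 5.12, 7.69 and 5.51 in albino arrays, against 6.42, 5.42 and 5.63 in wild type. Replicate 2 was the highest albino array for both, while the groups overlapped only for XTH19. The glycosyltransferase AT2G41640 had 7.06, 8.50 and 7.52 in albino arrays, against 7.18, 6.93 and 7.14 in wild type. ECS1, a cell wall protein, had 10.27, 9.44 and 8.74 in albino arrays, against 9.64, 9.61 and 9.39 in wild type, and was the cell wall gene in which replicate 1 was highest. Among the expansins, which loosen walls, 10 were named in the annotation, and none of these was a member. Unnamed probe sets may hold others. Replicate 2 was the lowest albino array in 5 of the 6 named expansins with a mean of at least 5. It was lowest in 24.1% of other probe sets at that level. EXPA8 had 5.52, 4.70 and 5.78 in albino arrays, against 7.27, 6.97 and 6.50 in wild type.

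**Figure D4:**
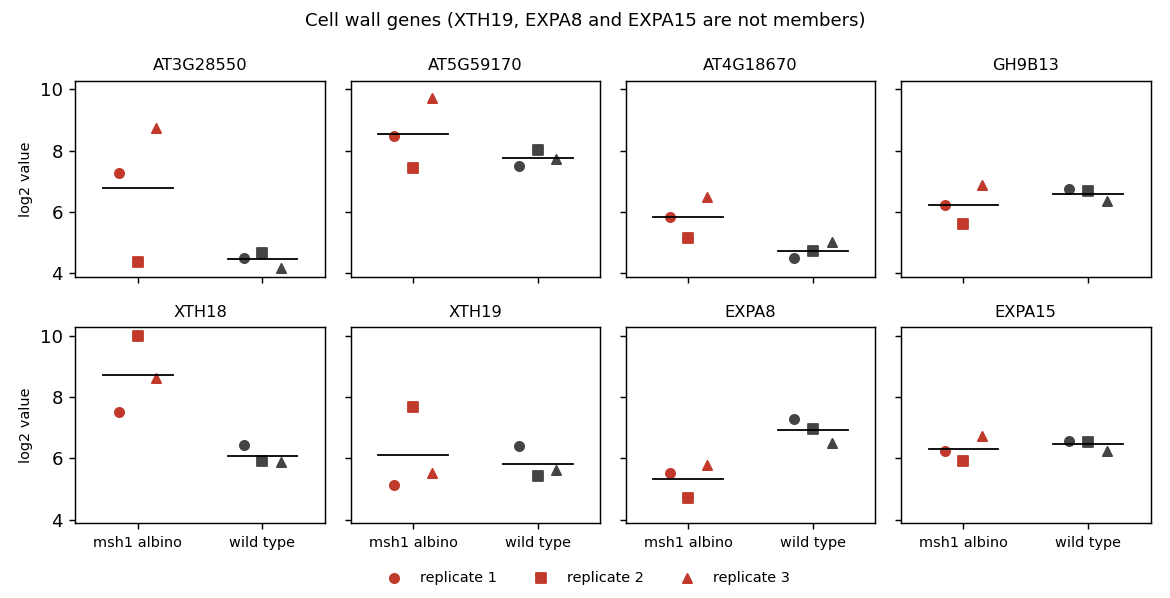
Each panel gives a gene's log2 value in the 3 msh1 albino arrays at the left and the 3 wild-type arrays at the right, with marker shapes for replicates and a line at each mean. Albino replicate 2 is the lowest albino array in the extensin-like AT3G28550 at 4.36 and the highest in XTH18 at 9.98; XTH19, EXPA8 and EXPA15 are not members.

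The genes of mitochondrial stress and detoxification were lowest among the albino arrays in replicate 3, in 4 of 4 members as deposited and in 3 of 4 after alignment on the spiked controls, against 43 of all 158 members. AT2G04050, a MATE-type efflux protein, had 8.48, 9.19 and 7.09 in albino replicates 1, 2 and 3, against 5.42, 5.83 and 5.92 in wild type, and was called higher by 2.53 ± 0.46. GSTU25, a tau class glutathione transferase, had 6.21, 6.50 and 5.02 in albino arrays, against 4.30, 4.08 and 4.09 in wild type, and was called higher by 1.75 ± 0.34. AT1G43910, an AAA-type ATPase, had 7.11, 7.34 and 5.97 in albino arrays, against 4.91, 4.90 and 4.86 in wild type, and was called higher by 1.92 ± 0.31. In these 3 genes replicate 3 lay between the other albino arrays and wild type. NDB3, an alternative NAD(P)H dehydrogenase of mitochondria, had 6.74, 5.99 and 5.53 in albino arrays, against 5.12, 5.42 and 5.22 in wild type, and was not called.

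AT2G20720, to which no role is given here, followed them with 7.04, 7.71 and 5.52 in albino replicates 1, 2 and 3, against 4.63, 4.63 and 4.47 in wild type, and was called higher by 2.18 ± 0.47. AT2G07722, a locus of the mitochondrial DNA insertion on chromosome 2, had 8.36, 8.63 and 7.31 in albino arrays, against 6.11, 6.26 and 6.62 in wild type, and was called higher by 1.77 ± 0.32. Its probe set shares sequence with other transcripts, so its source is uncertain. In both, replicate 3 was the albino array nearest to wild type.

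Of 18 genes in a list of the mitochondrial dysfunction response, 8 were matched to a single-gene probe set. Of these 8 genes 5 were called higher, where 391 of all 13350 genes were. The list was chosen with earlier results of these data known and includes the 5 genes that the rule leaves out. Its counts are therefore a description and carry no support. Replicate 3 was the lowest albino array in 8 of 8 as deposited, where it was lowest in 37.2% of all genes. Among the 13378 non-member probe sets with a mean of at least 5 outside the plastid genes, it was lowest in 6690. In the list it was lowest in 7 after alignment on reference genes and in 5 after alignment on the spiked controls. The spread was not shared by all of these 8 genes. AT5G09570, left out of the members by the rule, had 7.81, 8.03 and 5.76 in albino replicates 1, 2 and 3, against 4.93, 4.96 and 4.79 in wild type. AT2G41380 had 7.54, 7.66 and 7.46 in albino arrays, against 5.80, 5.30 and 5.23 in wild type. The albino arrays were thus nearly equal for AT2G41380 and widely spread for AT5G09570, with both above wild type in every albino array.

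**Figure D5:**
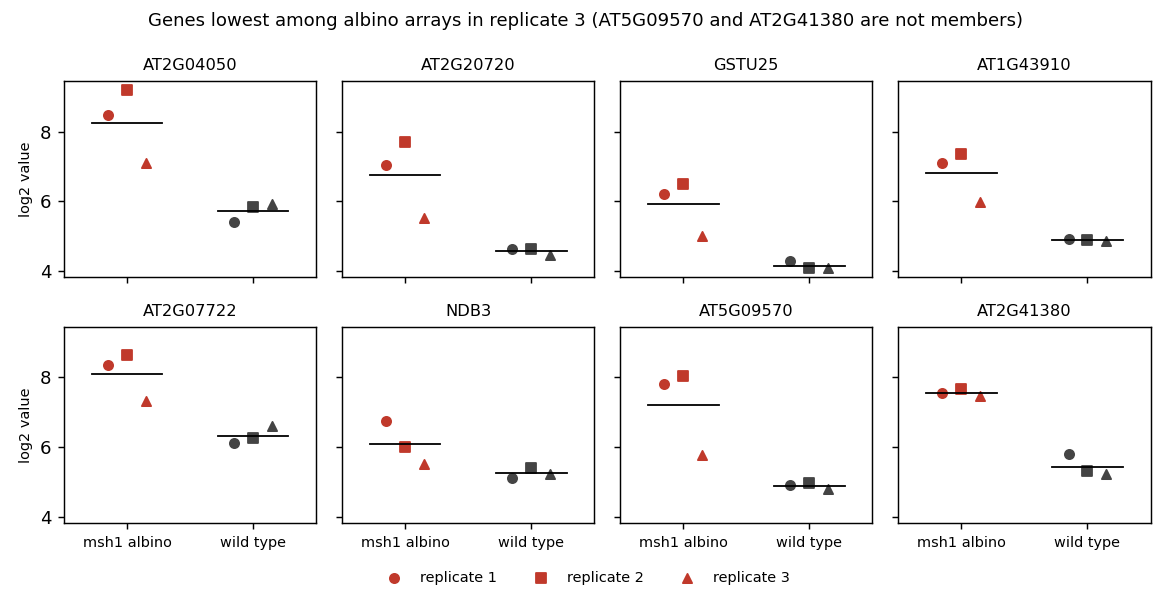
Each panel gives a gene's log2 value in the 3 msh1 albino arrays at the left and the 3 wild-type arrays at the right, with marker shapes for replicates and a line at each mean. Replicate 3 is the lowest albino array in every panel, at 7.09 in AT2G04050 and 5.02 in GSTU25, though after alignment on the spiked controls this order held for 3 of the 4 members of the group; AT5G09570 and AT2G41380 are not members.

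Neighbouring acetyltransferase genes on chromosome 2 shared a call but not an order. AT2G32020 had 7.63, 7.97 and 6.61 in albino replicates 1, 2 and 3, against 6.02, 5.65 and 5.44 in wild type. AT2G32030 had 5.07, 6.35 and 5.60 in albino arrays, against 4.44, 4.34 and 4.21 in wild type. Both were called higher, with replicate 3 the lowest albino array in AT2G32020 and replicate 1 in AT2G32030.

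Replicate 3 was the albino array nearest to wild type in several members whose mean was lower in the albino group. AT3G48970, a heavy-metal-binding domain protein, had 4.66, 4.29 and 6.30 in albino replicates 1, 2 and 3, against 6.87, 7.27 and 6.73 in wild type, and was called lower, with a difference of -1.88 ± 0.47. AT4G21650, a subtilase, had 5.86, 4.37 and 6.53 in albino arrays, against 7.22, 7.15 and 7.18 in wild type. Both had all albino arrays below wild type. AT2G40480, of the WEB family, had 5.41, 5.16 and 6.49 in albino arrays, against 6.36, 6.67 and 6.42 in wild type. AT3G12710, of a DNA glycosylase family, had 5.85, 5.37 and 6.71 in albino arrays, against 6.55, 6.99 and 6.66 in wild type. In the last pair replicate 3 lay within the wild-type range and the other albino arrays below it.

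The unnamed members included equally wide spreads. The probe set 245777_at had 4.89, 8.43 and 5.08 in albino replicates 1, 2 and 3, against 5.60, 5.49 and 5.73 in wild type. The probe set 247718_at had 8.90, 6.77 and 9.88 in albino arrays, against 10.99, 11.11 and 11.11 in wild type. Replicate 2 was the farthest from wild type in both, above it in 245777_at and below it in 247718_at.

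The array that stood apart rested on the scaling for part of the members. When the arrays were aligned on the spiked controls, which lowered albino replicate 2 by 0.43 and raised replicate 3 by 0.28, replicate 2 was highest in 92 of the 158 members, and in 122 to 123 under the deposited values and every other scaling tried. In the members with replicate 2 clearly high, whose gaps exceed the shift of this alignment by their choice, the median of replicate 2 minus the mean of the other albino arrays was 1.43 as deposited and 0.80 after the spiked alignment. In the other probe sets it was 0.10 and -0.53. Applying the thresholds anew after the spiked alignment gave 313 probe sets, of which 53 were among the 158, and replicate 2 was highest in 10.2% of the 313. Replicate 2 was then clearly high in 12 and clearly low in 179 of them, so the direction in which it mostly stood apart turned with this scaling. Applied anew under the other scalings, the thresholds left 36 to 46 with replicate 2 clearly high, against 62 as deposited. With albino replicate 2 left out, 25 probe sets met the thresholds, all of them among the 158, and without replicate 1 or replicate 3 there were 95 and 102. A range over 2 arrays cannot exceed the range over 3. Apart from small changes of the mean, lower counts drawn from the 158 therefore follow from leaving out any albino array.

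Of 22 lists, 3 held a named member, 1 each, which is 3 of the 77 listed loci matched to a single-gene probe set. Of all 13350 genes so matched, 69 were members. The 86 unnamed members could not be set against any list, so the lists may hold further members. With so few genes matched by the annotation, lists without a named member carry no result. Among them were those for cold and dehydration (4 matched), hypoxia (5), anthocyanin and flavonoid synthesis (5), sugar starvation (4), senescence (3), auxin and growth (5) and root tissue (5). The lists named 411 loci in all, and those without a match may have unnamed probe sets on the array. PYK10 of the root list had the order of NAI2 among the albino arrays, and its wild-type range exceeded 0.6, which kept it out of the members.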

How the data were processed

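Aerial parts of 3 albino msh1 and 3 wild-type plants were profiled on Affymetrix arrays, and samples were grouped as labelled. Values deposited per probe set and array are log2 and were made by the authors with RMA in the affy package, per the submitters' processing notes. The sources used here name no version, setting or genome build. RMA normalizes arrays to each other and summarises probes per probe set, so levels of different probe sets are not compared. The values were used as deposited. The annotation gave a single gene for 13513 probe sets, several for 503 and none for 8730, and TAIR10.1 gene tables served for names and neighbours only.

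The members and gene lists were chosen with earlier results of these data known. Each of 22746 probe sets was fitted with lmFit and eBayes of limma 3.58.1 in R 4.3.3 as msh1 albino minus wild type, two-sided, with Benjamini-Hochberg adjustment and a threshold of 0.05. The fit was tested on simulated data. Other steps used Python 3.11.15 with pandas 2.3.3. The labels give no batch. The number of arrays limits the precision, and nothing says how far replicates share growth or handling, so p-values measure the spread between these samples.

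The named-gene rule took up to 4 named members with the widest albino range in each class of array clearly apart, up to 4 members of each list, and the 3 probe sets on either side of the range threshold. These were ORA47, AT4G29780, AT5G01870, AT4G27652, AT4G21650, AT1G66100, AT1G22160, AT3G48970, AT2G40480, AT2G20720, GSTU25, YAB5, AT2G41090, AT2G04050, AT1G52000 and the threshold probe sets. Every other gene was named after its values were seen, and so were the functional groups. Background was not measured, so folds over values near 4, the arrays' 25th percentile, may be understated. Promoter motifs and sequences were not analysed here.

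Alternatives were 5 other scalings, other thresholds, filters on the mean, probe sets that share sequence left out, an intensity trend with a robust prior, the replicate number as a block, 1 probe set per named gene and leaving out each array.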

Additional observations from a re-analysis of the deposited data

How the results depend on the processing

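Over all tested probe sets 2547 were called (854 higher, 1693 lower). The numbers called were 1153 after alignment on the spiked controls (581 higher, 572 lower) and 851 to 2109 with an array left out, the lowest when wild-type replicate 2 was dropped (1255 for wild-type replicate 3). The split was 1301 higher and 1095 lower on the 75th percentile, 1260 and 1047 by cyclic loess, 1186 and 1297 by quantile normalization and 1506 and 952 on the reference genes. Over all probe sets the median difference was -0.04 as deposited and -0.06 to 0.08 under these alignments. Of the 158 members 42 were called as deposited, 67 on the 75th percentile and on the reference genes, 94 on the spiked controls, and 7 to 58 with an array left out (22, 7 and 16 for wild-type replicates 1, 2 and 3).

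The 158 members numbered 313 on the spiked controls, 25 to 220 with an array left out (fewer without an albino array, more without a wild-type array), 293 or 79 at an albino range of 1.0 or 1.5, 98 at a wild-type range of 0.4, 104 at a mean of 6, and 69 as named genes. Replicate 1 clearly apart (6 members) became 14 on the 75th percentile, 10 by loess, 16 by quantile normalization, 12 on the reference genes, 19 and 2 at ranges of 1.0 and 1.5, 3 at a wild-type range of 0.4, 3 at a mean of 6, 0 among named genes, and 16 and 2 at gap ratios of 1.5 and 3. Replicate 2 (69) became 43 by quantile normalization, 191 on the spiked controls (12 high and 179 low, against 62 and 7), 117 and 39 at ranges of 1.0 and 1.5, 45 at a mean of 6 and 32 among named genes. Replicate 3 (24) became 10 on the spiked controls, 38 and 8 at ranges of 1.0 and 1.5, 14 at a wild-type range of 0.4, 10 among named genes and 15 at a gap ratio of 3. The threshold settings and the arrays left out change the rule itself; for the scalings the cause was not tested.

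The ORA47 difference of 0.95 ranged between -0.19 (without albino replicate 2) and 1.55 (without albino replicate 1) with an array left out. Among 494 values of named genes under alternatives, 400 kept their direction and side of the threshold, 64 kept the direction and lost the call, and 29 kept it and gained one. Deviations of arrays with the same number correlated at 0.01, -0.34 and -0.02, and no albino array correlated best with its own number. The deviations within a group constrain one another, so these correlations cannot decide whether arrays with the same number were paired. With the replicate number as a block, 1485 probe sets and 38 members were called.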
